A study of Mus musculus with 30 samples.

Results

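Wnt ligands, R-spondins and secreted Wnt inhibitors that are known from the stroma of the gut were followed in the colon of mice fed a control diet or a high-fat diet. The group was fixed by name and holds 10 genes, *Wnt2b*, *Wnt4*, *Wnt5a*, *Rspo1*, *Rspo2*, *Rspo3*, *Sfrp1*, *Frzb*, *Dkk2* and *Dkk3*, of the 46078 genes in the count table. Each was found once by its symbol and its Ensembl identifier. Of the 10, 8 passed the filter on low counts in every comparison, and *Rspo1* and *Rspo2* passed in none. RNA-seq of the colon was available for 30 C57BL/6J mice that started at 5 to 6 weeks of age, with 6 animals and 6 libraries in each of 5 groups. CD F and CD M were intact females and males on control diet (CD, 10% of the energy from fat). HFD F and HFD M received high-fat diet (HFD, 60% of the energy from fat). Feeding lasted 13 weeks, and in its last 3 weeks these 4 groups received 9 intraperitoneal injections of vehicle. The fifth group, HFD+E2 M, consisted of HFD males injected with 17β-estradiol (E2) at 0.5 mg/kg body weight on the same schedule.

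Wnt proteins bind Frizzled receptors and, in the canonical branch, keep β-catenin from being degraded, which maintains the stem cells at the crypt base. R-spondins bind LGR receptors and remove the ligases RNF43 and ZNRF3 that clear Frizzled from the cell surface, so they amplify a Wnt signal without starting one. SFRP proteins and FRZB bind Wnt ligands outside the cell, and Dickkopf proteins act mostly on the LRP co-receptors. In the intestine these factors are made largely by fibroblasts, telocytes and smooth muscle around the crypts, and partly by the epithelium itself. The samples were pieces of colon tissue, of the distal colon by the study's methods, and not sorted cells, so which cells held each transcript was not measured. Fewer cells of a type and less RNA per cell cannot be told apart in such samples.

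The genes lie on 8 chromosomes in the GRCm38 coordinates of the deposited files. The ligand genes are *Wnt2b* (ENSMUSG00000027840, chr3:104945272-104961921), *Wnt4* (ENSMUSG00000036856, chr4:137277489-137299726) and *Wnt5a* (ENSMUSG00000021994, chr14:28504750-28527447). The R-spondin genes are *Rspo1* (ENSMUSG00000028871, chr4:124986430-125009099), *Rspo2* (ENSMUSG00000051920, chr15:43020811-43170818) and *Rspo3* (ENSMUSG00000019880, chr10:29453109-29535867). The inhibitor genes are *Sfrp1* (ENSMUSG00000031548, chr8:23411502-23449632), *Frzb* (ENSMUSG00000027004, chr2:80411970-80447625), *Dkk2* (ENSMUSG00000028031, chr3:132085292-132180304) and *Dkk3* (ENSMUSG00000030772, chr7:112116019-112159057). Small annotated genes overlap 3 of them: a same-strand gene within *Wnt2b* had at most 4 counts in a library, an opposite-strand gene within *Wnt5a* at most 6, and one at the start of *Rspo1* had 0.

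RefSeq promoter windows of GRCm38.p6, 250 bases before to 50 bases after the start, were held for 5 of the 10 genes. Those of *Wnt2b* and *Wnt4* are printed because these ligands were the ones past the study's threshold in the results that follow. The window of *Wnt2b* is chr3:104961660-104961959 on the minus strand and that of *Wnt4* is chr4:137277385-137277684 on the plus strand, both written 5′ to 3′ along the gene, with capitals at each GC box (GGGCGG on either strand, overlapping copies merged).
*Wnt2b*: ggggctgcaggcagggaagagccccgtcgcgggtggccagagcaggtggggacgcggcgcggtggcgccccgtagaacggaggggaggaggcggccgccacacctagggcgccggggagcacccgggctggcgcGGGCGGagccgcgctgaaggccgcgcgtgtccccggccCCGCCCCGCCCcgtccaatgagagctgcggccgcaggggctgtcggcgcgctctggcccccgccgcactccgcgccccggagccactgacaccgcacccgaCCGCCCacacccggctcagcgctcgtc
*Wnt4*: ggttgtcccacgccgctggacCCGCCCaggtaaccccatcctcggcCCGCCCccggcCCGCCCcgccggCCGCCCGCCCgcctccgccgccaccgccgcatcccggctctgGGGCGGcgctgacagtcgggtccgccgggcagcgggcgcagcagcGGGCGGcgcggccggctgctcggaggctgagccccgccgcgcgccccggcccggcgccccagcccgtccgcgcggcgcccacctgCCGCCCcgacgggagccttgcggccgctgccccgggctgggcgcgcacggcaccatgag
The *Wnt2b* window held 4 GC boxes and the *Wnt4* window 8, and a GC box was present in 35.7% of all 32851 windows. GC content was 79.7% in *Wnt2b* and 84.3% in *Wnt4*, against a median of 52.7% over all windows. Neither window contained the estrogen response element half-site AGGTCA, which was found in 16.3% of all windows, or the TCF/LEF core CTTTG, found in 53.9%, on either strand. These are matches of letters only.

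Total counts per library ranged from 8667177 to 17243712, and mitochondrial genes took 26.1% to 38.0% of them. The markers of the stroma were present: all 10 fibroblast markers and all 10 smooth muscle markers passed the filter in every comparison. Markers of squamous epithelium, keratinised cells that line the anal canal, summed to over 100 TPM (transcripts scaled to gene length and to one total per library) in 6 libraries, 4 of HFD F and 2 of HFD M, and to at most 14.5 TPM in the other 24. Fold changes that involve HFD F or HFD M are therefore also given without those 6 libraries, an alternative chosen after the data were seen that leaves 2 HFD F and 4 HFD M libraries.

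The inhibitors *Sfrp1* and *Dkk3* had the highest levels of the 10 genes, and the R-spondins *Rspo1* and *Rspo2* the lowest. TPM was used wherever the level of one gene is compared with another. Over the 30 libraries *Sfrp1*, which binds Wnt ligands, had a median of 11.4 TPM with a range of 6.98 to 18.2, and *Dkk3*, an atypical Dickkopf protein, had a median of 9.55 TPM with a range of 4.78 to 15.2. *Sfrp1* was above *Dkk3* in 24 of 30 libraries. *Rspo3* followed with a median of 5.05 TPM, below *Dkk3* in 30 of 30 libraries and above *Wnt5a* in 30 of 30. Among the ligands, the noncanonical *Wnt5a* had a median of 2.09 TPM and *Wnt2b* one of 1.56 TPM, and *Wnt5a* was the higher of the pair in 26 libraries.

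The remaining members were close to each other or near the detection limit. Median levels were 1.18 TPM for *Dkk2*, which inhibits the LRP co-receptors, 1.06 TPM for *Frzb*, also called Sfrp3, and 0.736 TPM for *Wnt4*. Their order changed between animals, with *Wnt2b* above *Dkk2* in 20 of 30 libraries, *Dkk2* above *Frzb* in 18 and *Frzb* above *Wnt4* in 20. *Rspo1* had a median of 0.199 TPM from 0 to 11 counts per library, and *Rspo2* one of 0.123 TPM from 2 to 13 counts per library. *Rspo4*, the remaining R-spondin, had 0 counts in all 30 libraries. *Rspo3* made up most of the R-spondin transcript, as its lowest level in any library, 2.48 TPM, lay above the highest level of *Rspo1*, 0.784 TPM, and of *Rspo2*, 0.337 TPM.

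**Figure D1:**
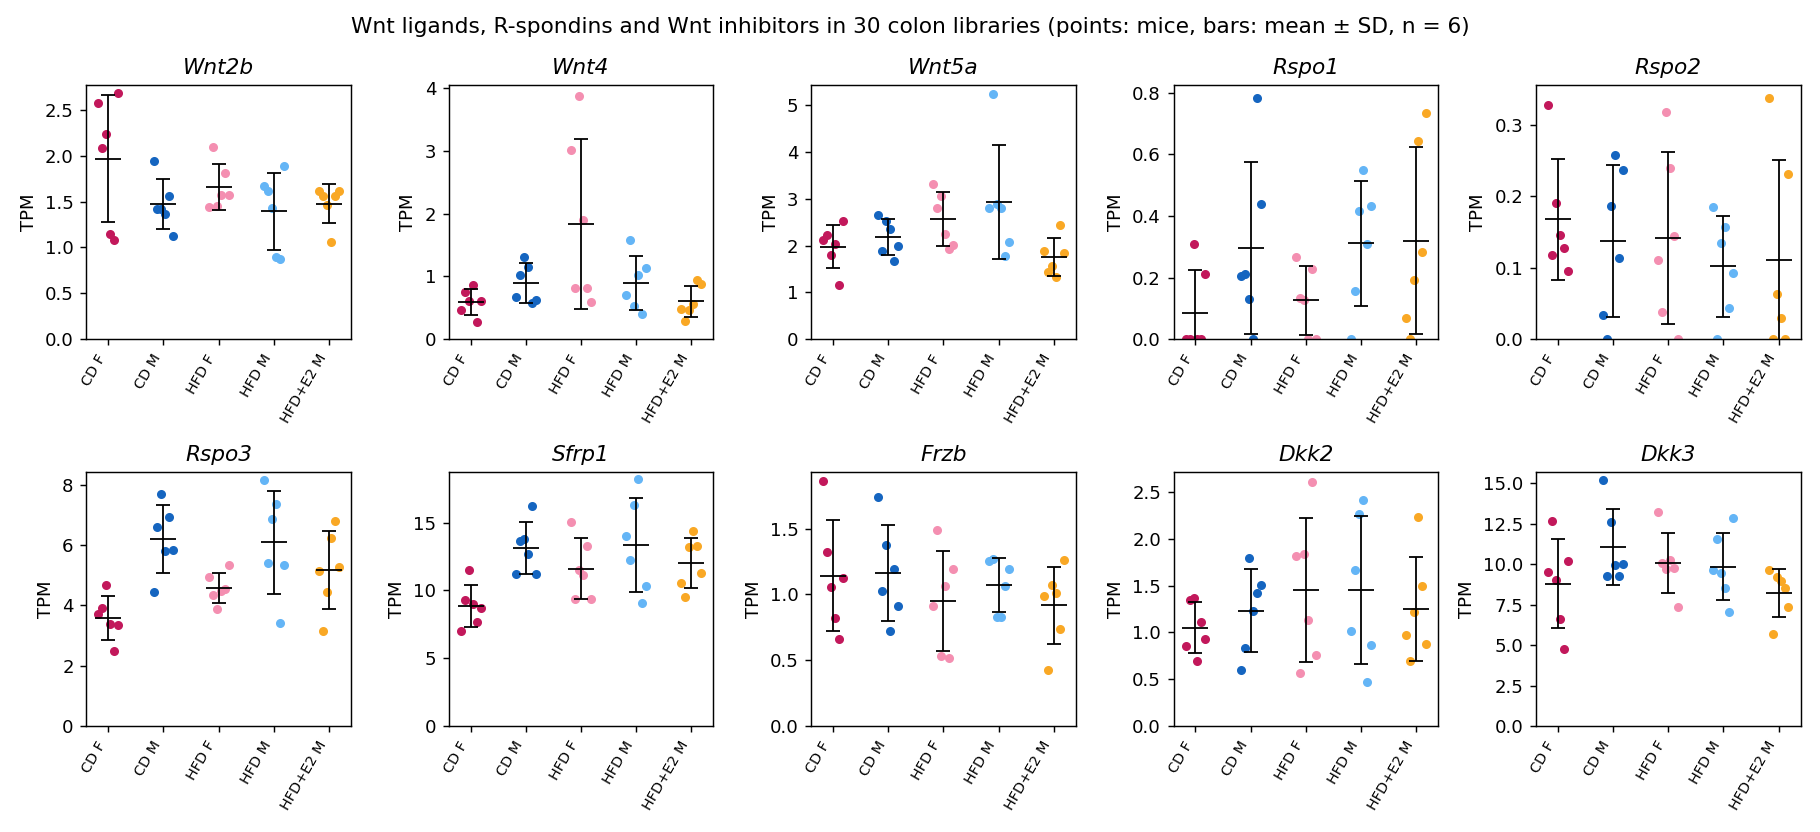
TPM of the 10 genes in each of 30 mice (points) with the mean and SD of each group (bars, n = 6, bars that reach below 0 are cut off there); each panel has its own axis. CD F lies lowest for *Rspo3* and *Sfrp1*, and HFD F spreads widest for *Wnt4*, from 0.590 to 3.88 TPM.

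When groups were ordered by their median TPM, the ranges of neighbouring groups overlapped for each of the 10 genes. For *Rspo3* the order was CD M (6.22), HFD M (6.14), HFD+E2 M (5.21), HFD F (4.51) and CD F (3.54). For *Sfrp1* it was the same, CD M (13.2), HFD M (13.1), HFD+E2 M (12.3), HFD F (11.3) and CD F (8.84). *Wnt4* was highest in HFD F (1.36) and lowest in HFD+E2 M (0.516). *Wnt5a* was highest in HFD M (2.81) and lowest in HFD+E2 M (1.71).

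On CD, females had less *Rspo3* and *Sfrp1* and more *Wnt2b* than males. The study's threshold, an unadjusted p under 0.05 and a log2 fold change beyond 0.4 in either direction, was passed by these 3 of the 8 genes tested, 1 higher and 2 lower in CD F. Of all 14922 genes tested 9.15% passed it, 2.94% higher and 6.21% lower. *Rspo3* alone passed an adjusted p under 0.05, as 2.92% of all genes did. The median log2 fold change of the 8 genes was -0.21, against 0.011 over all genes tested. With this number of members, 3 of 8 is a description and no test of the group was made.

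*Rspo3*, the R-spondin with the highest level here, measured 2.48, 3.54 and 4.66 TPM (lowest, median and highest) in CD F and 4.44, 6.22 and 7.71 TPM in CD M. All 6 females lay below the male median, 4 of them below every male on the log2 CPM scale. Its log2 fold change was -0.68 ± 0.16 (SE, edgeR, adjusted p = 0.031), which is 0.623 of the male level, and the exact permutation test of log2 CPM gave p = 0.0065, where 0.0022 is the smallest value that 6 against 6 animals allow. It was from -0.79 to -0.61 when any 1 library was left out, but the adjusted p then ranged from 0.0048 to 0.087 and was above 0.05 in 7 of 12 cases. With the squamous score as a covariate the difference was -0.60 by edgeR, and the call after adjustment was also lost (adjusted p = 0.093).

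*Sfrp1* measured 6.98, 8.84 and 11.5 TPM in CD F and 11.2, 13.2 and 16.2 TPM in CD M. Every female was below the male median, and 1 female (11.5 TPM) lay above the 2 lowest males (11.2 TPM each). Its log2 fold change was -0.46 ± 0.14 (SE, edgeR, adjusted p = 0.11), and the exact permutation p was 0.017. Without CD F replicate 1 or CD M replicate 5 the log2 change was -0.39 or -0.37, under the minimum fold of the threshold.

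*Wnt2b*, a canonical ligand of the crypt stroma, moved the other way, with 1.09, 2.16 and 2.68 TPM in CD F and 1.13, 1.42 and 1.95 TPM in CD M. On the log2 CPM scale all 6 females were above the male median and 4 above every male, while the TPM of 2 females lay at the bottom of the male range. The log2 fold change was 0.52 ± 0.19 (SE, edgeR, adjusted p = 0.17), with an exact permutation p of 0.026. On log2(TPM + 0.1) the difference was 0.33 with an exact permutation p of 0.19, so the call depended on the scale.

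The other 5 genes tested did not pass on CD. *Wnt4* had a median of 0.604 TPM in CD F and 0.851 TPM in CD M, with a log2 fold change of -0.49 ± 0.26 (SE, edgeR, adjusted p = 0.42) and an exact permutation p of 0.13. *Wnt5a*, *Frzb*, *Dkk2* and *Dkk3* had log2 fold changes from -0.23 to 0.12. No gene of the 8 had log2 CPM ranges that did not overlap between the sexes, a separation that 2.17% of all genes tested showed.

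Markers of muscle and fibroblasts moved with the decrease in *Rspo3* and *Sfrp1*. All 10 smooth muscle markers passed the study's threshold as lower in CD F (median log2 fold change -0.59), 6 of them with an adjusted p under 0.05, and their summed level was 2640 to 4093 TPM in CD F and 4149 to 6888 TPM in CD M. Of 10 fibroblast markers 6 were lower, 4 of them after adjustment, and the sums were 470.0 to 795.1 TPM and 786.4 to 1282 TPM. Of the 8 telocyte and trophocyte markers tested, 3 were lower. No marker of these 3 lists was at 0 counts in a whole group. Other cell types moved as well: 2 of 5 endothelium markers were lower in CD F, both after adjustment, with sums of 20.9 to 32.4 TPM against 25.2 to 41.2 TPM. Of 5 B cell markers 3 were higher past the study's threshold and 0 after adjustment with edgeR, with a median log2 fold change of 1.40 and sums of 12.5 to 51.4 TPM in CD F against 0.580 to 39.2 TPM in CD M. The part of these last lists in the results was not tested. With the mean smooth muscle score as a covariate the log2 difference was -0.22 for *Rspo3*, 0.021 for *Sfrp1* and 0.26 for *Wnt2b* by edgeR (adjusted p = 0.60, 0.96 and 0.66). With the fibroblast score it was -0.23 for *Rspo3*, -0.092 for *Sfrp1* and 0.67 for *Wnt2b*, none of them past an unadjusted p under 0.05. Of all 14922 genes tested, 522 had such a p by edgeR with the fibroblast score. The number was 2749 with the smooth muscle score and 2207 without a covariate. Since the smooth muscle sums of the sexes did not overlap on CD, sex and the amount of muscle RNA cannot be told apart in these 12 libraries.

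**Figure D2:**
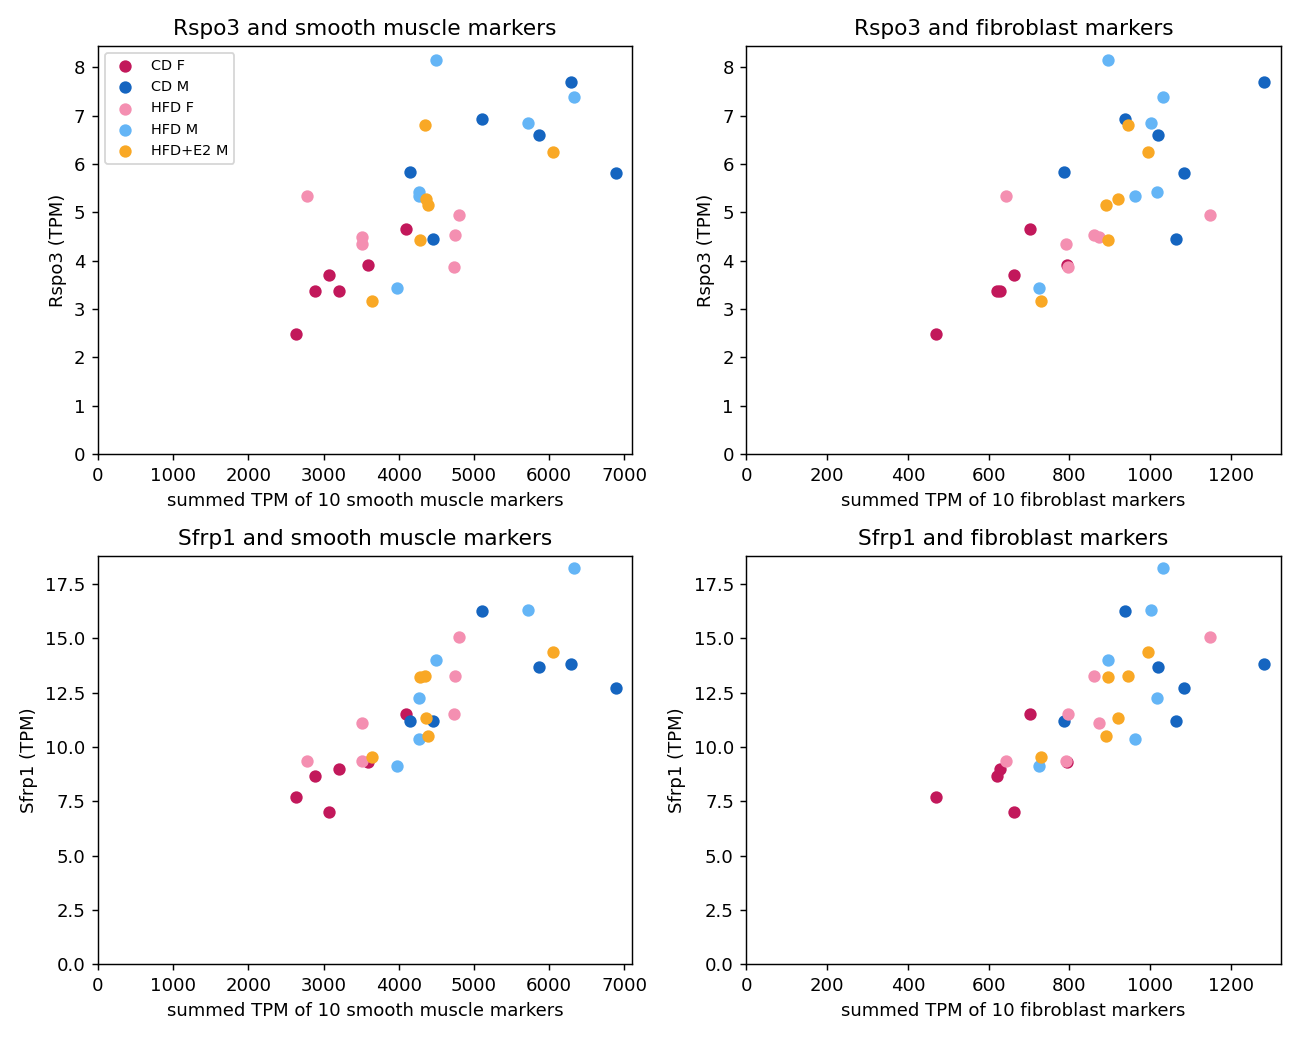
*Rspo3* and *Sfrp1* (TPM, vertical axes) against the summed TPM of 10 smooth muscle or 10 fibroblast markers (horizontal axes) in 30 libraries, 1 point per mouse, coloured by group. CD F lies toward the low end of both marker sums, with 2640 to 4093 TPM for smooth muscle against 4149 to 6888 TPM in CD M. The fibroblast sums, 470.0 to 795.1 TPM in CD F and 786.4 to 1282 TPM in CD M, overlap.

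On HFD, the sexes differed past the study's threshold in 1 of 8 genes, *Wnt4*, where 3.09% of all 15179 genes tested passed, 2.01% as higher in females. By edgeR 0 of 8 passed the adjusted threshold, as against 0.0988% of all genes, 1 had an unadjusted p under 0.05, and DESeq2 also gave 0 after adjustment. *Wnt4*, a ligand known for its part in female gonad development, measured 0.590, 1.36 and 3.88 TPM in HFD F and 0.398, 0.869 and 1.58 TPM in HFD M. Only 3 of the 6 females were above every male. The log2 fold change was 1.05 ± 0.45 (SE, edgeR, adjusted p = 0.87), and the call was lost in 6 of 12 cases when 1 library was left out (HFD F replicates 1, 3 or 4 or HFD M replicates 1, 3 or 5), with changes from 0.67 to 1.27 over the 12. The exact permutation test of log2 CPM gave p = 0.13.

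The genes past the study's threshold between the sexes on CD did not pass it on HFD, which does not show that the difference was lost. *Rspo3* measured 3.88, 4.51 and 5.33 TPM in HFD F and 3.43, 6.14 and 8.16 TPM in HFD M, so that the male values extended both below and above the female ones. Its log2 fold change was -0.31 ± 0.17 (SE, edgeR, adjusted p = 0.87), with an exact permutation p of 0.11. *Wnt2b* measured 1.45, 1.57 and 2.10 TPM in HFD F and 0.871, 1.52 and 1.89 TPM in HFD M, with a log2 fold change of 0.43 ± 0.21 (SE, edgeR, adjusted p = 0.87) and an exact permutation p of 0.061. *Sfrp1* had a log2 fold change of -0.13 ± 0.16 (SE, edgeR, adjusted p = 0.90), with an exact permutation p of 0.53. Without the squamous libraries the differences were -0.19 for *Rspo3*, 0.43 for *Wnt2b* and -0.33 for *Sfrp1*. For *Wnt5a*, *Frzb*, *Dkk2* and *Dkk3* the values ran from -0.12 to 0.087 with all libraries, and without the squamous ones from -0.61 for *Dkk2* to 0.30 for *Frzb*. The direction of *Frzb*, *Dkk2* and *Dkk3* turned, and none of these values passed the threshold.

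*Wnt4* was higher in HFD F than in CD F. It was the 1 gene of 8 past the study's threshold between HFD F and CD F, where 3.67% of all 15061 genes tested passed, 2.95% as higher on HFD. The adjusted threshold was passed by 0 of 8 with edgeR and 0.0199% of all genes, although 3 of the 8 had an unadjusted p under 0.05. *Wnt4* did pass it with DESeq2 (adjusted p = 0.032) and with edgeR when all 30 libraries were in one fit (adjusted p = 0.040). More genes passed in these fits, 214 of all 27955 with DESeq2 and 86 of all 16060 in the single fit. CD F had 0.273, 0.604 and 0.857 TPM of *Wnt4*, against 0.590, 1.36 and 3.88 TPM in HFD F. All 6 HFD females were above the CD median on the log2 CPM scale, and 3 were above every CD female. The log2 fold change was 1.54 ± 0.43 (SE, edgeR, adjusted p = 0.50), or 2.90-fold, with an exact permutation p of 0.026. It stayed past the threshold in each of 12 cases with 1 library left out, from 1.15 to 1.71.

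The highest levels of *Wnt4* went with those of squamous epithelium markers. In HFD F the 10 squamous markers summed to 1249, 1275, 1343 and 246.6 TPM in replicates 1, 3, 4 and 5, and to 2.77 and 1.53 TPM in replicates 2 and 6. *Wnt4* was 3.02, 3.88 and 1.91 TPM in replicates 1, 3 and 4 and 0.815, 0.814 and 0.590 TPM in replicates 5, 2 and 6. The 3 libraries with the most squamous markers were thus the 3 with the most *Wnt4* of all 30. In HFD M, replicate 2 with 352.1 TPM of squamous markers had the highest *Wnt4* of its group, 1.58 TPM, and replicate 4 with 111.6 TPM had 1.03 TPM. Libraries with few squamous markers could have more than the latter. HFD M replicate 6 had 1.135 TPM of *Wnt4* at 1.944 TPM of squamous markers. CD M replicates 3 and 4 had 1.318 and 1.158 TPM at 14.47 and 2.678 TPM. All 10 squamous markers had counts in HFD F.

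Without the 6 libraries over 100 TPM of squamous markers the *Wnt4* difference between HFD F and CD F was 0.18 on the log2 scale by edgeR and that between HFD F and HFD M was 0.047, neither past the threshold, with 2 HFD females left in both. With the squamous score as a covariate the values were 0.035 and 0.19, again past no threshold. With the fibroblast score as a covariate *Wnt4* did not pass the study's threshold in these comparisons either. The part of each tissue in the difference was not tested. Over the 30 libraries, the 3 non-member genes whose log2 CPM was most like that of *Wnt4* after centring each group were *Serpinb8* (Pearson's r = 0.85), *Dmkn* (0.80) and *Trim29* (0.80), of 13707 genes compared. *Dmkn* and *Trim29* are known from stratified epithelium.

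**Figure D3:**
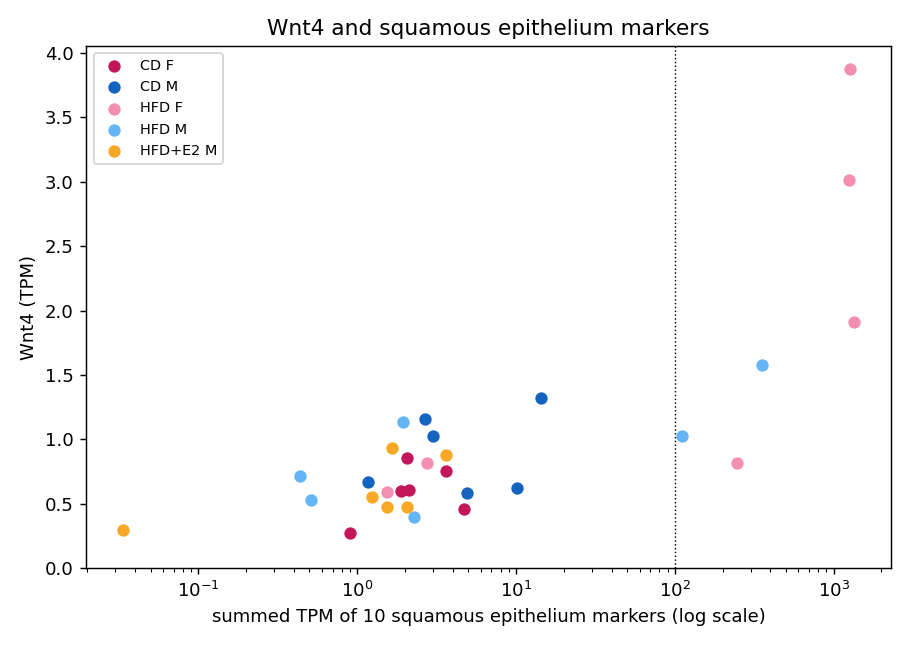
*Wnt4* (TPM, vertical axis) against the summed TPM of 10 squamous epithelium markers (horizontal axis, log scale) in 30 libraries, 1 point per mouse, coloured by group; the dotted line marks 100 TPM. The 3 HFD F libraries at 1249 to 1343 TPM of squamous markers have 1.91 to 3.88 TPM of *Wnt4*, and the other 27 libraries at most 1.58 TPM.

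*Wnt5a* and *Sfrp1* had an unadjusted p under 0.05 by edgeR in HFD females but stayed under the fold minimum. *Wnt5a* measured 1.17, 2.07 and 2.53 TPM in CD F and 1.93, 2.53 and 3.32 TPM in HFD F, a log2 fold change of 0.31 ± 0.13 (SE, edgeR, adjusted p = 0.78) with an exact permutation p of 0.024, and 0.24 without the squamous libraries. *Sfrp1* had a median of 8.84 TPM in CD F and 11.3 TPM in HFD F, and its log2 fold change of 0.30 ± 0.14 (SE, edgeR, adjusted p = 0.88, exact permutation p = 0.089) was -0.0049 without the squamous libraries. *Rspo3* had a log2 fold change of 0.28 ± 0.15 (SE, edgeR, adjusted p = 0.94) and an exact permutation p of 0.058, and 0.36 without the squamous libraries. For *Wnt2b*, *Frzb*, *Dkk2* and *Dkk3* the values were between -0.23 and 0.40 with no p under 0.05. The direction turned without the squamous libraries for *Dkk2* (0.40 to -0.59), *Frzb* (-0.23 to 0.18) and *Dkk3* (0.12 to -0.085), again past no threshold, and *Wnt2b* was at -0.14.

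HFD changed none of the 8 genes in males past either threshold. Of all 14991 genes tested 2.9% passed the study's threshold and 0.0% the adjusted one with edgeR, where DESeq2 called 26 genes. No gene of the 8 had an unadjusted p under 0.05 with edgeR, and DESeq2 called 0. The log2 fold changes ran from -0.20 for *Dkk3* to 0.14 for *Dkk2*. For *Wnt4* the difference was -0.016, with a 95% interval from -0.62 to 0.59, which does not exclude a change of the size of the threshold in either direction. For *Rspo3* it was -0.094 ± 0.18 (SE), with medians of 6.22 TPM in CD M and 6.14 TPM in HFD M. Without the 2 squamous HFD M libraries the 8 differences ran from -0.38 for *Wnt4* to -0.020 for *Frzb*, with -0.16 for *Rspo3*, and none passed the threshold.

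The response of *Wnt4* to HFD differed between the sexes by 1.54 ± 0.54 on the log2 scale (SE, edgeR on the 24 vehicle libraries, adjusted p = 0.63), more positive in females. It was the 1 gene of 8 past the study's threshold, which 5.18% of all 15800 genes passed, 3.71% in this direction. By edgeR 0 of 8, and 0.0% of all genes, passed the adjusted threshold, 1 of the 8 had an unadjusted p under 0.05, and DESeq2 gave 0 of the 8 and 7 genes in all after adjustment. Leaving out 1 library at a time gave values from 1.16 to 1.76, all past the study's threshold, and leaving out the 6 squamous libraries gave 0.55, which was not. The interaction was 0.37 ± 0.23 for *Rspo3* (SE, edgeR, adjusted p = 0.76), 0.32 ± 0.22 for *Sfrp1* (adjusted p = 0.77) and -0.10 ± 0.28 for *Wnt2b* (adjusted p = 0.95). A difference between the sexes in their response to HFD was thus not shown. Without the squamous libraries *Rspo3* was at 0.51 and *Sfrp1* at 0.13, and the other 5 genes ran from -0.44 for *Dkk2* to 0.26 for *Wnt5a*, past no threshold.

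E2 given to HFD males changed none of the 8 genes past either threshold. The study's threshold was passed by 5.87% of all 15010 genes tested and the adjusted one by 0.00666%. With edgeR 1 of the 8 had an unadjusted p under 0.05, and DESeq2 called 0 at either threshold. That gene was *Wnt5a*, with 1.77, 2.81 and 5.23 TPM in HFD M and 1.33, 1.71 and 2.44 TPM in HFD+E2 M. All 6 treated males lay below the HFD M median of log2 CPM. Its log2 fold change was -0.38 ± 0.15 (SE, edgeR, adjusted p = 0.46, exact permutation p = 0.028), with a 95% interval from -0.70 to -0.054, just under the fold minimum. It passed that minimum without HFD M replicate 5 (-0.45), HFD M replicate 6 (-0.40) or HFD+E2 M replicate 5 (-0.45), and was -0.26 without the squamous libraries.

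The other log2 fold changes under E2 ran from -0.35 for *Wnt4* to 0.32 for *Wnt2b*. *Wnt4* measured 0.295, 0.516 and 0.937 TPM in HFD+E2 M, and its difference was 0.0029 without the squamous libraries. *Rspo3* differed by -0.077 ± 0.18 and *Sfrp1* by 0.021 ± 0.15 (log2, SE). Without the squamous libraries *Rspo3* was at -0.028, *Sfrp1* at 0.13 and *Wnt2b* at 0.26, *Frzb* and *Dkk3* at -0.19 and -0.080, and *Dkk2* moved from -0.0075 to 0.29, all under the fold minimum. The comparisons share groups: CD F, CD M and HFD F each enter 2 comparisons of pairs of groups and HFD M enters 3, so their values are set side by side and are not independent.

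**Figure D4:**
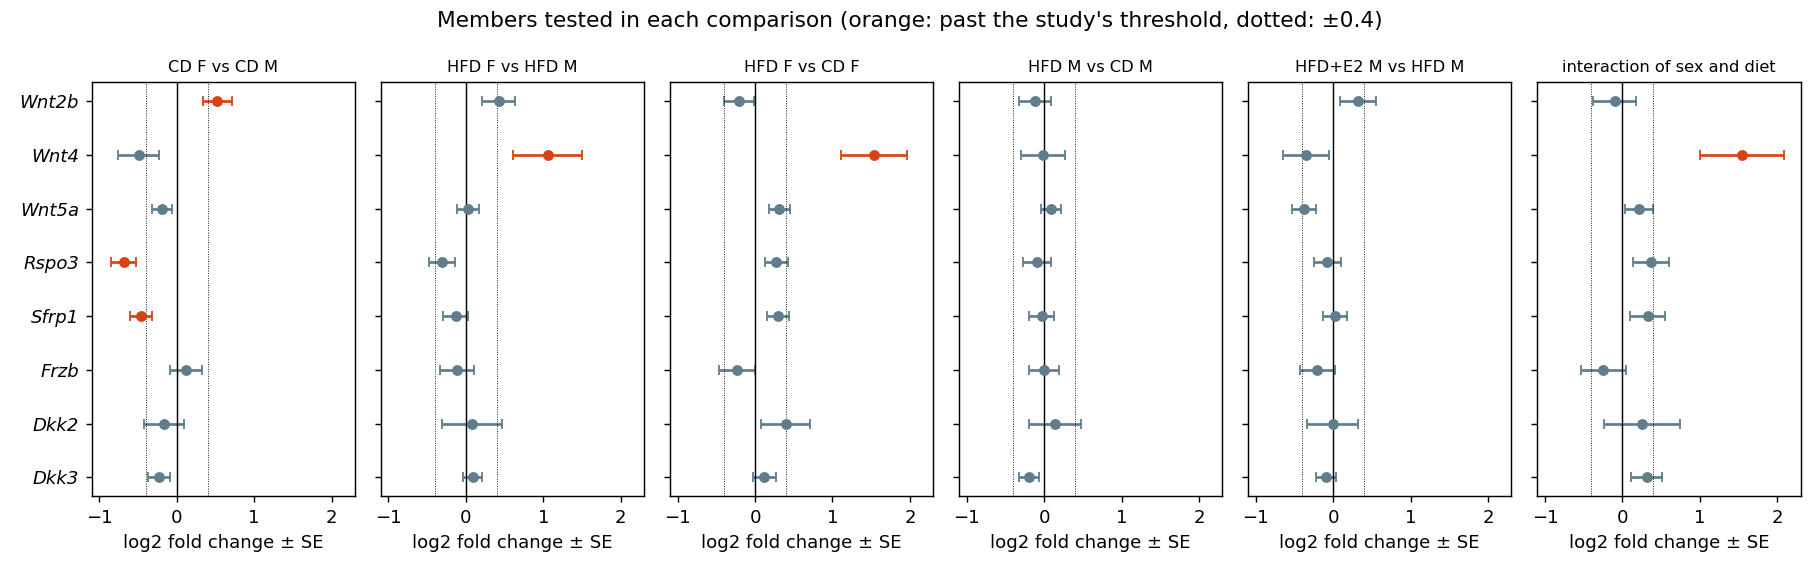
Log2 fold change (horizontal axis, first group over second) with its SE for the 8 genes tested, in 5 comparisons of 6 against 6 mice and in the interaction of sex and diet over 24 mice; orange points are past the study's threshold and dotted lines mark the fold minimum of 0.4. *Rspo3*, *Sfrp1* and *Wnt2b* are orange on CD, and *Wnt4* in the 3 panels that include HFD F.

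*Rspo1* and *Rspo2*, the R-spondins that failed the filter, were compared by exact permutation tests of log2 CPM only. *Rspo1* had 0 to 11 counts in a library and p from 0.45 to 0.96 over the 5 comparisons. *Rspo2* had 4 to 10 counts in CD M and 2 to 6 in HFD M, a difference of -0.43 in log2 CPM (exact permutation p = 0.041). In the other 4 comparisons its p was from 0.47 to 0.88, and 1 value under 0.05 among these 10 tests was not adjusted.

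Within groups, the levels of *Sfrp1*, *Dkk2* and *Rspo3* were correlated from mouse to mouse. After centring log2 CPM within each group, the 28 pairs of the 8 genes were compared over 30 libraries, with 100000 permutations within groups. *Sfrp1* and *Dkk2* gave the highest correlation (Pearson's r = 0.78, permutation p = 1e-05, the smallest that the permutations can give, adjusted p = 0.00028, Spearman's rho = 0.75, permutation p = 2e-05, adjusted p = 0.00056), and r was 0.77 without the 2 farthest libraries. *Rspo3* correlated with *Sfrp1* (r = 0.60, permutation p = 0.0015, adjusted p = 0.014, rho = 0.52, permutation p = 0.0075, adjusted p = 0.069) and with *Dkk2* (r = 0.58, permutation p = 0.0028, adjusted p = 0.020, rho = 0.52, permutation p = 0.0099, adjusted p = 0.069), with r of 0.53 and 0.42 without the 2 farthest libraries.

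*Wnt4* and *Wnt5a* formed another correlated pair (r = 0.58, permutation p = 0.00069, adjusted p = 0.0097, rho = 0.60, permutation p = 0.0016, adjusted p = 0.022). Without the 2 farthest libraries r was 0.55, and it was 0.48 in the 24 libraries with few squamous markers. The remaining 24 pairs had adjusted p-values over 0.05 for Pearson's r. The lowest was *Wnt2b* with *Sfrp1* (r = -0.34, permutation p = 0.094, adjusted p = 0.38, rho = -0.31, permutation p = 0.12, adjusted p = 0.38).

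**Figure D5:**
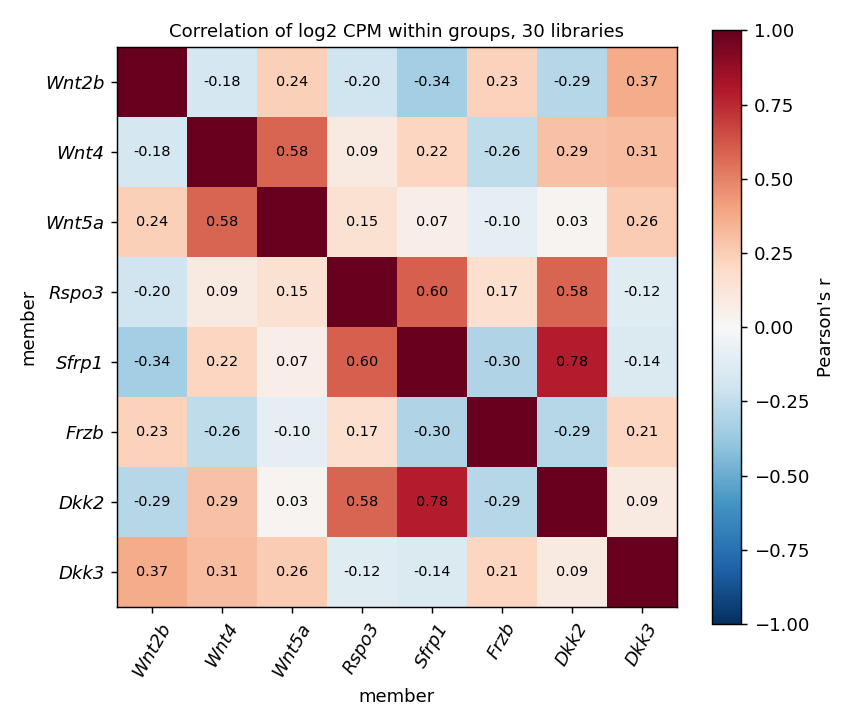
Pearson's r between the 8 genes tested, from log2 CPM centred within each group over 30 libraries (both axes list the genes, and colour and number give r). *Sfrp1*, *Dkk2* and *Rspo3* correlate with each other (0.58 to 0.78), as do *Wnt4* and *Wnt5a* (0.58), while *Wnt2b* and *Sfrp1* are at -0.34.

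The same centred values were set against the mean scores of the smooth muscle and fibroblast markers, 16 relations in all. *Sfrp1* followed the smooth muscle score closely (r = 0.80, permutation p = 1e-05, adjusted p = 0.00016, rho = 0.79, permutation p = 1e-05, adjusted p = 0.00016, r = 0.77 without the 2 farthest libraries). *Dkk2* did so too (r = 0.69, permutation p = 0.00026, adjusted p = 0.0021, rho = 0.68, permutation p = 0.00039, adjusted p = 0.0031, r = 0.61 without the 2 farthest). *Dkk3* went with the fibroblast score (r = 0.49, permutation p = 0.0058, adjusted p = 0.031, rho = 0.48, permutation p = 0.011, adjusted p = 0.044, r = 0.49 without the 2 farthest). *Sfrp1* was related to it at a similar strength (r = 0.48, permutation p = 0.017, adjusted p = 0.068, rho = 0.54, permutation p = 0.0049, adjusted p = 0.026, r = 0.47 without the 2 farthest), past the adjusted threshold by rho and not by r.

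*Rspo3* was at r = 0.40 with the smooth muscle score (permutation p = 0.050, adjusted p = 0.10, rho = 0.37, permutation p = 0.067, adjusted p = 0.12, r = 0.24 without the 2 farthest libraries). *Wnt2b* was at r = -0.43 (permutation p = 0.024, adjusted p = 0.074, rho = -0.44, permutation p = 0.022, adjusted p = 0.072, r = -0.32 without the 2 farthest). Neither passed the adjusted threshold. With the fibroblast score *Rspo3* was at r = 0.12 (permutation p = 0.56, adjusted p = 0.61, rho = 0.28). *Wnt4* was at r = 0.48 (permutation p = 0.029, adjusted p = 0.074, rho = 0.46, adjusted p = 0.083), and at r = 0.64 in the 24 libraries with few squamous markers. *Dkk2* was at r = 0.45 (permutation p = 0.032, adjusted p = 0.074, rho = 0.44, adjusted p = 0.079). None of these passed the adjusted threshold over the 30 libraries.

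The genes most like each member by the same centred correlation over 30 libraries, described without a test, were partly muscle genes. For *Sfrp1* they were *Bnc2* (r = 0.89), *Rbpms* (0.85) and *Mylk* (0.85), the myosin light chain kinase of smooth muscle, and for *Dkk2* *Cald1* (0.79), *Igf1r* (0.78) and *Mylk* (0.77). *Mylk* is also 1 of the 10 smooth muscle markers. For *Rspo3* they were *Abi3bp* (0.79), an extracellular matrix protein, *Stambp* (0.73) and *Plcb1* (0.73). *Wnt5a* was most like *Pi15* (0.81), *Hgf* (0.76), the hepatocyte growth factor of mesenchymal cells, and *Kctd12b* (0.68). Genes like *Dkk3* included *Pla2r1* (0.76) and *Igfbp3* (0.73). *Wnt2b* (*Tmem170*, *St6gal1* and *Tex10*) and *Frzb* (*Abca9*, *Scgn* and *Rpe*) reached at most 0.67 and 0.63.

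The rest of the pathway was covered by 65 listed genes, namely the other Wnt ligands, the secretion genes, receptors, R-spondin receptors and ligases, other secreted inhibitors and target genes. By symbol 64 were matched to exactly 1 entry, and the receptor *Fzd6* was not. On CD 41 of the 65 listed genes were tested and 6 passed the study's threshold (14.6%, against 9.15% of all genes), 2 higher and 4 lower in CD F. *Sfrp4*, a relative of *Sfrp1*, was higher in females (3.78 ± 0.937 TPM against 1.80 ± 0.545, SD, n = 6), opposite in direction to *Sfrp1*, with a log2 fold change of 1.17 ± 0.25 (SE, edgeR, adjusted p = 0.016). *Lgr5*, the R-spondin receptor that marks crypt stem cells, was also higher, by 0.53 ± 0.14 on the log2 scale (edgeR, adjusted p = 0.047). Its TPM differed less, with 4.21 ± 0.742 in CD F and 3.54 ± 0.638 in CD M (SD, n = 6). The TPM ranges, 3.446 to 5.092 and 2.975 to 4.566, overlapped. *Ccnd1*, a cell cycle target, was lower by -0.43 ± 0.11 (adjusted p = 0.048) and the receptor *Fzd7* by -0.40 ± 0.12 (adjusted p = 0.096).

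In the other comparisons 0 of the listed pathway genes passed the adjusted threshold with edgeR, with 3 to 5 at an unadjusted p under 0.05. DESeq2 called *Cd44* in HFD F against CD F, where it called 214 genes in all. Between the sexes on HFD 4 of 43 tested genes were past the study's threshold (9.3%, against 3.09% of all genes, 2.01% as higher), all higher in HFD F: *Sfrp4* (log2 fold change 1.05), the membrane inhibitor *Apcdd1* (0.78), and the targets *Cd44* (0.63) and *Tcf7* (0.53), each with an adjusted p of 0.87. In HFD F 4 of 42 were higher than in CD F (9.52%, against 3.67% of all genes, 2.95% as higher), *Cd44* (0.92, adjusted p = 0.41), *Sfrp2* (1.03, adjusted p = 0.65), *Apcdd1* (0.91, adjusted p = 0.65) and *Porcn* (0.50, adjusted p = 0.71), the enzyme that acylates Wnt ligands. The squamous markers of 4 HFD F libraries, at 246.6 to 1343 TPM, moved with both counts. Without the squamous libraries the 4 genes of each comparison were all past no threshold, with differences from 0.093 to 0.23 between the sexes and from 0.051 to 0.29 between the diets. In HFD M 4 of 42 were lower than in CD M (9.52%, against 2.9% of all genes, 1.64% as lower), and these were target genes, *Ccnd1* (-0.41, adjusted p = 0.49), the stem cell factor *Ascl2* (-0.74, adjusted p = 0.70), *Ephb2* (-0.43, adjusted p = 0.80) and *Ephb3* (-0.41, adjusted p = 0.82). Without the squamous libraries *Ascl2* (-0.64) was still past the study's threshold, and *Ccnd1* (-0.40), *Ephb2* (-0.34) and *Ephb3* (-0.34) were not. With all libraries, the median log2 fold change of the 12 target genes tested in males was -0.41, against -0.0067 over all genes tested. The target genes were not tested as a set.

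Under E2, 2 of 42 pathway genes were higher past the study's threshold, a share of 4.76% near the 5.87% of all genes that passed it (2.63% as higher), *Tcf7* (0.64, adjusted p = 0.46) and the ligand *Wnt5b* (0.56, adjusted p = 0.49). *Wnt5b* measured 0.391, 0.512 and 0.606 TPM in HFD M and 0.438, 0.807 and 0.965 TPM in HFD+E2 M, while its relative *Wnt5a* was the lower one under E2. Without the squamous libraries *Tcf7* was at 0.47 and *Wnt5b* at 0.60, neither past the threshold. In the interaction 3 of 44 passed (6.82%, against 5.18% of all genes, 3.71% in this direction), *Ccnd1* (0.59, adjusted p = 0.46), *Cd44* (1.02, adjusted p = 0.48) and *Ephb2* (0.61, adjusted p = 0.66), each more positive in females. Of these, *Cd44* (0.63) passed without the squamous libraries, while *Ccnd1* (0.32) and *Ephb2* (0.30) did not. Of the 14 receptors tested, 0 passed the study's threshold with edgeR in these comparisons with all libraries, while on CD 2 did. *Ptk7*, a receptor of this list, passed in HFD F against CD F without the squamous libraries.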

How the data were processed

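Colon RNA of 30 mice was sequenced after ribosomal RNA removal, with 1 library per mouse. Per the labels and methods, the authors trimmed the reads with Trim Galore, mapped them to GRCm38 (mm10) with STAR and deposited raw featureCounts counts per gene, with strand settings and versions not given in the sources used here. They also deposited TPM values made with StringTie, used here for levels. Gene entries listed more than once in the TPM tables were summed.

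Each comparison was fitted on the counts of its 12 libraries with edgeR 4.0.16 (filterByExpr, TMM, robust quasi-likelihood F-test) in R 4.3.3, and p-values were adjusted over all genes tested by the Benjamini-Hochberg method. SEs and 95% intervals follow from the F statistic. The interaction used the 24 vehicle libraries. Exact permutation tests were two-sided, on log2 CPM with a prior count of 2. Marker scores are mean log2 CPM of a list. Alternatives were DESeq2 1.42.0 or its size factors, no filter or a minimum of 10 counts throughout, a single fit of the 30 libraries, a replicate block, 3 marker scores as covariates, log2 TPM with 0.1 or 1 added, and each library left out. The tests were tried on simulated counts.

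The 10 genes and the lists were chosen with earlier results of these data known. Named were the 10 genes in every comparison, at most 4 pathway genes per comparison with the smallest p among those past the study's threshold, and for each member the 3 most correlated non-member genes with a mean of at least 1 TPM. One gene that this rule names is not reported here. The threshold of the study is read as an unadjusted p, since its methods do not say. Counts are of reads without molecular identifiers.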

Additional observations from a re-analysis of the deposited data

Results flagged for a closer look

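Of 50 combinations of 10 genes and 5 groups, 2 held a sample far from the other 5 by Dixon's criterion at the 95% level, where chance alone flags about 1 in 20. *Wnt5a* in HFD M replicate 2 was 5.23 TPM, with the next at 2.88 TPM, although its 157 counts lay within the 107 to 167 counts of that group. *Wnt2b* in HFD+E2 M replicate 4 was 1.06 TPM, with the next at 1.47 TPM, from 33 counts. The response of *Wnt4* to HFD differed between females and males by 1.54 on the log2 scale in a test of the difference itself (edgeR, adjusted p = 0.63). Squamous epithelium markers moved with it, and their part in the result was not tested beyond the values given for the covariate and for the 24 libraries with few such markers.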

How the results depend on the processing

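Counts of members past the study's threshold kept within 1.5 times in most settings, with these exceptions. On CD the count fell from 3 to 0 with the smooth muscle or the fibroblast score as a covariate, and *Sfrp1* changed sign with the smooth muscle score (0.021). Between the sexes on HFD it was 2 with at least 10 counts in every library or with all 30 libraries in one fit, which added *Wnt2b*, and 0 with the replicate block, with the squamous or fibroblast score, and without the libraries rich in squamous markers, and leaving out 1 library gave 0 to 2. For HFD F against CD F and for the interaction it was 0 with the squamous or fibroblast score and without the squamous libraries, for the interaction also 0 with the smooth muscle score, and leaving out 1 library gave 1 to 2. Under E2 it was 1 with the smooth muscle score, which added *Wnt2b*, and 0 to 1 with 1 library left out. Over all genes the CD count went from 1366 to 1964 with the smooth muscle score and to 502 with the fibroblast score. For HFD F against CD F it fell from 553 to 347 (squamous score), 435 (fibroblast score) and 373 (without the squamous libraries). In these settings it fell from 818 to 433, 395 and 332 for the interaction. Between the sexes on HFD it went from 469 to 544, 395 and 337. Leaving out 1 library added *Wnt4* on CD (CD F replicate 4, -0.65, CD M replicate 1, -0.59, or CD M replicate 6, -0.58). Between the sexes on HFD it added *Wnt2b* (HFD M replicate 6, 0.52, or, in place of *Wnt4*, HFD F replicate 1, 0.51) or, in place of *Wnt4*, *Rspo3* (HFD M replicate 5, -0.41). It added *Dkk2* in HFD F against CD F (HFD F replicate 2, 0.57), *Wnt5a* under E2 (HFD M replicates 5 or 6 or HFD+E2 M replicate 5), and *Dkk3* (CD F replicate 2, 0.42) or *Rspo3* (CD M replicate 1, 0.47) in the interaction. The causes were not tested. Samples with the same number did not all deviate together (correlations from -0.22 to 0.47), so the numbers were not taken to pair the mice. Between HFD F and CD F the correlations were all positive, from 0.031 to 0.30, and what same-numbered samples share was not tested. In the replicate block *Sfrp1* on CD had an adjusted p of 0.0094 (edgeR), *Wnt4* on CD passed (-0.49), and *Wnt4* between the sexes on HFD did not (0.86). Of all genes on CD, 941 passed the adjusted threshold with the block and 435 without it. Of 1224 values of single genes under an alternative, 1177 kept their side of the threshold, 28 lost it, 18 gained it and 1 reversed, and 105 of the values past no threshold in either fit changed sign. With 0 to 13 counts per library, *Rspo1* and *Rspo2* could not be tested by edgeR at this depth.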

Other observations

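Other Wnt ligands were sparse, and 3 or 4 of 16 passed the filter. *Wnt7b* and *Wnt10a*, ligands of stratified epithelium and skin, were chosen after their values were seen. *Wnt7b* reached 1.04 TPM in HFD F and 0.471 TPM in HFD M, and had 0 counts in 5 of 6 libraries of CD F, 5 of 6 of CD M and 6 of 6 of HFD+E2 M. *Wnt10a* reached 0.818 TPM in HFD F and 0.289 TPM in HFD M, against at most 0.0857 TPM in the other groups. *Sfrp2* reached 9.33 TPM in HFD F, where its median was 2.17 TPM, and 4.12 TPM in HFD M.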
